A study of Mus musculus with 12 samples.

Results

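The stroke response of mice that lack Lama4 was read by setting the hemisphere with the stroke against the opposite hemisphere of the same animals. The comparison used 6 of the 12 RNA-seq libraries of the series, those labelled Lama4-/- ipsilateral and Lama4-/- contralateral, 3 of each. Libraries with the same number come from the same pool, so the hemispheres were paired as pools 1, 2 and 3. The other 6 libraries are the same hemispheres of 3 pools of wild-type (WT) mice, which served to estimate the spread and to test whether the response of Lama4-/- differed. All mice were male and 12 weeks old, and a filament closed the left middle cerebral artery for 60 min, followed by 24 h of reperfusion. Each pool joins 2 mice. How the Lama4-/- allele was made is not given in the sources used here. The contralateral control is the other hemisphere of an operated mouse; no unoperated brain was compared. Per the labels' protocols PBS was run through the vessels, each brain was trimmed of cerebellum and olfactory bulb, and blood with its immune cells was to be washed out. Because whole hemispheres were homogenized, dying, bordering and spared tissue lie in the same library.

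The middle cerebral artery feeds the striatum and much of the lateral cortex, and these regions bear the infarct in the filament model. Loss of blood flow starves neurons of glucose and oxygen, and in the following day injured cells induce stress proteins, glia and vessels release cytokines, and leukocytes are drawn from the blood. Laminin alpha 4, the product of Lama4, is a chain of the laminins that endothelial cells deposit in the basement membrane of brain vessels.

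Stroke changed many of the measured genes in Lama4-/- hemispheres, and the rises were much larger than the falls. Of 15351 genes tested with edgeR, 4906 were called at an adjusted p under 0.05, which is 32% of them. The 2494 genes that rose make up 16.2% and the 2412 that fell 15.7%. The counts of the lists below are to be read beside these shares. The median log2 fold change, ipsilateral over contralateral, was 0.58 among the genes that rose, -0.30 among those that fell and -0.0067 over all genes tested. At least 2-fold changes numbered 721 upward and 44 downward, at least 4-fold changes 243 and 3, and at least 8-fold changes 108 and 0. All 3 ipsilateral libraries lay above all 3 contralateral ones in 2751 genes (17.9%) and below them in 2702 (17.6%). A log2 fold change of 1 is a doubling, and a value after ± is a standard error (SE). The SE was derived from the edgeR F test, as the size of the log2 fold change over the square root of F, and is approximate. Levels are in CPM, the number of reads of a gene per 1000000 reads of the library, scaled by the TMM factors of edgeR. In hemisphere homogenates, fewer cells of a type and less RNA per cell cannot be told apart.

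**Figure D1:**
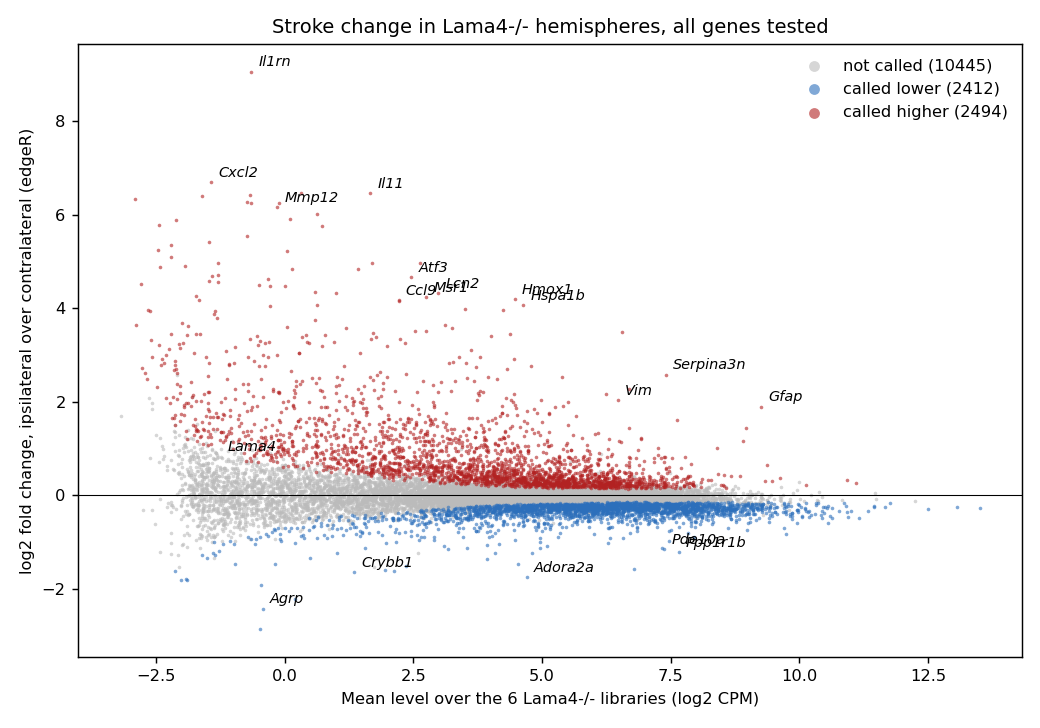
Change with stroke against level in Lama4-/- hemispheres: each point is 1 of the 15351 genes tested, with the mean log2 CPM over the 6 libraries on the x axis and the log2 fold change, ipsilateral over contralateral, on the y axis. Genes called at an adjusted p under 0.05 are coloured by direction; the upward changes reach far higher than the downward ones, where 44 genes fell at least 2-fold against 721 that rose.

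The Lama4-/- libraries held 30049032 to 42522384 reads in genes, so 1 CPM rests on 30 to 42.5 reads, and mitochondrially encoded genes took 3.86% to 4.31% of reads contralaterally and 3.64% to 3.73% ipsilaterally. Libraries of a group correlated at 0.994 to 0.998 over genes, and no pair was alike within sampling noise. Lama4 (ENSMUSG00000019846, chr10:38965515-39110188, plus strand, mm10) had 13, 13 and 6 reads in contralateral pools 1, 2 and 3 and 33, 8 and 19 reads in ipsilateral ones, against 198 to 601 reads in the 6 WT libraries. In CPM these residual reads were 0.338, 0.312 and 0.206 contralaterally and 0.797, 0.220 and 0.583 ipsilaterally, ranges that overlap, and the log2 fold change of 0.83 ± 0.37 was not called (adjusted p = 0.117), although it was without pool 2 (adjusted p = 0.0224). Neuronal Slc17a7, astrocytic Gfap and myelin Mbp, defining markers of brain tissue, stood at 243 CPM or more in every Lama4-/- library.

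Among genes with a mean of at least 1 log2 CPM, those with the largest rises encode cytokines, stress factors and products of reactive glia and phagocytes. Il11, a cytokine of the gp130 family (ENSMUSG00000004371, chr7:4772373-4782859, minus strand, mm10), stood at 0.363, 0.312 and 0.309 CPM in contralateral pools 1, 2 and 3 and at 21.4, 48.8 and 16.8 CPM in ipsilateral ones. Every ipsilateral value lay far above every contralateral one, and the log2 fold change was 6.46 ± 0.24 (adjusted p = 7.85e-07). Ptx3, a secreted pattern recognition protein, went from 0.831, 0.481 and 0.412 CPM to 19.0, 23.4 and 11.3 CPM (log2 fold change 4.96 ± 0.27, adjusted p = 1.05e-05). Atf3, a transcription factor of injured cells, went from 1.56, 1.11 and 0.687 CPM to 33.8, 34.2 and 16.9 CPM (log2 fold change 4.67 ± 0.31, adjusted p = 8.13e-05). The other genes of the top 15 were Tgm1, a transglutaminase, with 4.97 ± 0.41; Lilrb4, an inhibitory receptor of myeloid cells, with 4.83 ± 0.19; Lif, with 4.33 ± 0.50; and Lcn2, a siderophore-binding protein, with 4.32 ± 0.35. Msr1, Lgals3, Hmox1, Ccl9, Hspa1b, Cd14, Flnc and Emp1 completed them, with log2 fold changes between 3.63 for Emp1 and 4.24 for Msr1. Groups did not overlap in any of the 15, a condition of their choice. Single pools set the size of some of these changes: without pool 2 the log2 fold change was 5.82 for Il11, 4.33 for Tgm1, 3.52 for Lif and 4.70 for Hspa1b, and without pool 1 it was 6.20 for Tgm1.

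The largest falls were smaller and belong mostly to neurons of the striatum. Adora2a, the adenosine receptor of the striatal neurons that project to the globus pallidus (ENSMUSG00000020178, chr10:75316877-75334784, plus strand, mm10), read 36.2, 51.9 and 57.4 CPM contralaterally and 15.1, 11.4 and 16.4 CPM ipsilaterally. The highest ipsilateral value was below the lowest contralateral one, a condition of the choice of the 15 largest falls. The log2 fold change of Adora2a was -1.75 ± 0.15 (adjusted p = 0.00016). The orphan receptor Gpr6 fell by 1.50 ± 0.16 on the log2 scale, and the lens crystallin gene Crybb1, which microglia also transcribe, fell by 1.65 ± 0.18. Cd4 fell by 1.61 ± 0.17, Sh3rf2 by 1.596 ± 0.19, Lrrc10b by 1.46 ± 0.10 and Drd2, the dopamine D2 receptor, by 1.24 ± 0.12. Cartpt, a neuropeptide precursor, fell by 1.35 ± 0.30 with an adjusted p of 0.0137, and its call was lost without pool 1 (adjusted p = 0.121) and without pool 2 (0.0994). Otof, Tekt4, Ppp1r1b, Kirrel2, Pde10a and Ccdc153 closed the 15, at -1.24 for Otof to -1.14 for Ccdc153. The genes with the smallest p in the downward direction were Pde10a, Lrrc10b, Rgs9, Rasgrp2 and Camkk2, and upward Ccl9, Msr1, Serpina3n, Lgals3 and Lilrb4.

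**Figure D2:**
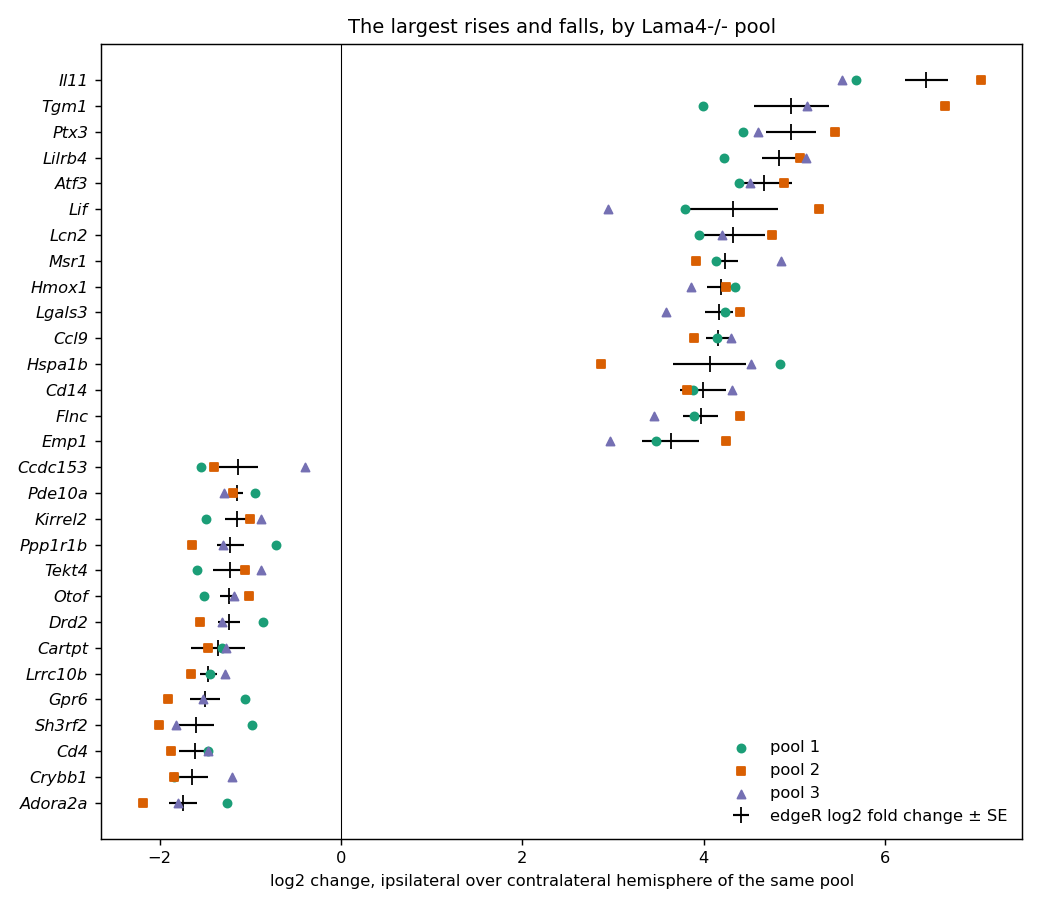
Change of the 15 largest rises and 14 of the 15 largest falls in each pool of Lama4-/- mice: each circle, square or triangle is the log2 difference between the ipsilateral and the contralateral hemisphere of pool 1, 2 or 3 on the x axis, and each cross with its bar is the edgeR log2 fold change with its SE. Every gene moved the same way in pools 1, 2 and 3, as the choice of genes required; Hspa1b moved least in pool 2.

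Inflammatory cytokines and chemokines rose from low levels. Of 22 listed, 21 passed the filter on low counts, and those 21 rose, with a median log2 fold change of 4.33; the summed level of the list spanned 34.2 to 38.5 CPM contralaterally and 154 to 225 CPM ipsilaterally. A gene with few contralateral reads could pass that filter through the ipsilateral libraries alone, so here and in other lists with such genes the count and the median describe the genes that passed and support nothing further. Several were at the edge of detection in the contralateral hemisphere. Il1rn, the natural antagonist of the interleukin 1 receptor, had 1 read over the 3 contralateral libraries and 759 over the ipsilateral ones, a depth-scaled ratio of 751 (95% interval 134 to 29690). The same ratio was 119 (95% interval 32.6 to 989.7) for Cxcl2, a neutrophil chemoattractant, and 64.8 (95% interval 17.6 to 540.5) for Csf3, the granulocyte growth factor; these intervals cover counting error only. The fitted log2 fold changes of these genes moved with single pools, for Il1rn from 9.05 to 10.68 without pool 1, for Cxcl2 from 6.69 to 5.46 without pool 2 and 9.72 without pool 3, and for Csf3 from 5.89 to 6.60 without pool 1 and 4.50 without pool 2.

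Il6, the founding gp130 cytokine, measured 0.0519, 0.0240 and 0.0687 CPM contralaterally and 3.26, 6.26 and 2.82 CPM ipsilaterally, highest in pool 2 (log2 fold change 6.42 ± 0.40, adjusted p = 4.86e-06; 5.61 without pool 2). Ccl2, which recruits monocytes, went from 0.285, 0.264 and 0.0687 CPM to 9.52, 16.2 and 9.45 CPM (5.76 ± 0.53, adjusted p = 0.000314). Ccl3, a chemokine of microglia, went from 0.285, 0.409 and 0.206 CPM to 6.74, 5.51 and 7.06 CPM (4.35 ± 0.22, adjusted p = 1.2e-06). In these genes the groups did not overlap, whereas their order among pools differed: pool 2 led for Il6 and Ccl2, pool 3 for Ccl3. Il1b stood at 2.13, 2.19 and 1.66 CPM and Tnf at 0.797, 1.84 and 2.15 CPM ipsilaterally, with log2 fold changes of 3.29 ± 0.29 and 2.96 ± 0.38. Csf1, the growth factor of microglia and macrophages, was well measured on both sides, at 31.9, 30.9 and 28.6 CPM and 73.3, 62.7 and 57.0 CPM, and rose by 1.07 ± 0.06 (adjusted p = 3.11e-06).

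Receptors and transcription factors that sense or relay these signals rose with them. Of 15 Toll-like receptors and inflammasome genes 14 rose and 0 fell (median 1.41), and 13 rose without 1 pool. Of 17 genes of the NF-kappaB and gp130 pathways 16 rose and 0 fell (median 1.19). Cd14, the co-receptor for bacterial lipopolysaccharide, went from 3.95, 3.00 and 1.79 CPM to 59.0, 42.9 and 36.6 CPM (log2 fold change 3.99 ± 0.25, adjusted p = 7e-05). Tlr2, a receptor for bacterial lipoproteins, rose by 2.23 ± 0.19, its partner Tlr1 by 2.24 ± 0.21 and Tlr13 by 2.21 ± 0.16. Casp1, which matures interleukin 1 beta, read 2.47, 3.92 and 3.37 CPM and 6.52, 4.58 and 4.02 CPM and was not called (adjusted p = 0.0513). Among signal genes Socs3, the feedback inhibitor that Stat3 induces, went from 7.09, 3.87 and 2.51 CPM to 44.0, 41.4 and 26.1 CPM (3.10 ± 0.19, adjusted p = 2.65e-05), and Stat3 itself rose by 1.23 ± 0.07. Osmr, the oncostatin M receptor, rose by 2.92 ± 0.16, and Bcl3, a nuclear IkappaB protein, by 3.38 ± 0.15. Zfp36, which destabilizes cytokine mRNA, rose by 2.50 ± 0.21. Tnfaip3, a brake on NF-kappaB, did not pass (adjusted p = 0.0524). Of 13 cytokine genes with a RefSeq promoter window, 7 held the letters GGGA, any 4 bases and CC, searched on both strands within 250 bases before the start as a form of the NF-kappaB motif, in 7 of 16 windows (43.8%), against 17.6% of the 32851 windows of all 27025 genes.

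The heat shock genes rose, and for several of them pool 2 rose the least. Of 15 tested, 13 rose and 0 fell (median 0.82), and 10 to 12 rose without 1 pool. The near-identical Hspa1a and Hspa1b encode inducible HSP70, and how reads were shared between the 2 copies is uncertain. Hspa1b read 4.80, 7.31 and 6.08 CPM contralaterally and 139.8, 53.8 and 141 CPM ipsilaterally, so that pool 2 rose the least (log2 fold change 4.07 ± 0.41, adjusted p = 0.000671). Hsph1, a nucleotide exchange factor for HSP70, read 288, 289.6 and 392 CPM and 888, 433 and 931 CPM, again lowest in ipsilateral pool 2 (1.15 ± 0.18, adjusted p = 0.00391). Hspb1, a small heat shock protein of reactive astrocytes and vessels, had another order, from 6.59, 4.71 and 4.23 CPM to 53.9, 28.0 and 25.1 CPM, highest in pool 1 (2.74 ± 0.15, adjusted p = 5.78e-06). Bag3, a co-chaperone, rose by 1.01 ± 0.10, while Hsf1, the factor that binds heat shock elements, read 32.5, 38.8 and 43.5 CPM and 32.4, 36.0 and 36.7 CPM and was not called (adjusted p = 0.182).

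The 120 bases before the start of both HSP70 genes, taken from RefSeq (GRCm38.p6) and shown because these genes moved most among the heat shock genes, carry the heat shock element letters GAANNTTC, in capitals, that begin 104 bases before the start. Over 250 bases the 2 promoters are the same at 247 positions. Both lie on the minus strand, Hspa1b at chr17:34959239-34959358 and Hspa1a at chr17:34972157-34972276.
Hspa1b: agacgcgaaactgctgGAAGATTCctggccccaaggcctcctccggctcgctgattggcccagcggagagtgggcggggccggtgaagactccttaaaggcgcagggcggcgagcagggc
Hspa1a: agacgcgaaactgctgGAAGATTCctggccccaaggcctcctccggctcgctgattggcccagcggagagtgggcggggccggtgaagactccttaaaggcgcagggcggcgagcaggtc
The motif reads the same on either strand and occurred in 5 of 13 windows of the heat shock list (38.5%: Hspa1a, Hspa1b, Hspb1, Hspd1 and Hspe1), against 6.69% of all windows.

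Interferon-stimulated genes rose as a group by a modest amount. All 20 of 20 tested rose, with a median log2 fold change of 1.26 and a summed level that spanned 145 to 149 CPM contralaterally and 253 to 329 CPM ipsilaterally. Ifitm3, a restriction factor in endosomal membranes, read 9.63, 10.6 and 8.76 CPM and 41.5, 38.6 and 29.2 CPM (log2 fold change 1.91 ± 0.15, adjusted p = 5.82e-05). Gbp2, a guanylate-binding protein, read 3.79, 4.13 and 3.20 CPM and 24.1, 16.2 and 12.0 CPM (2.20 ± 0.17, adjusted p = 4.06e-05). Ifit1, which binds foreign RNA ends, read 2.49, 2.64 and 2.71 CPM and 7.25, 5.16 and 5.89 CPM (1.21 ± 0.15, adjusted p = 0.00029), and Isg15, a ubiquitin-like protein, read 1.04, 0.961 and 1.44 CPM and 2.83, 3.43 and 3.28 CPM (1.49 ± 0.22, adjusted p = 0.00079). The groups did not overlap in these genes. The transcription factor Irf7 rose by 1.53 ± 0.20. Ifit3 and Ifit3b are near-identical copies, so their separate values are uncertain.

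The promoters of Ifit1 and Isg15 are shown as examples of the interferon-stimulated response element, searched as GAAA, any 2 bases and GAAA on both strands and set in capitals. Ifit1 lies on the plus strand (chr19:34640769-34640888) with matches that begin 104 and 85 bases before the start, and Isg15 on the minus strand (chr4:156200819-156200938) with 3 overlapping matches at 78, 72 and 66 bases.
Ifit1: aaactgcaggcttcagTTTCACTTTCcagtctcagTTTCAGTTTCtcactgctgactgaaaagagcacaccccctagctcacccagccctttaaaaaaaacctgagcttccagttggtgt
Isg15: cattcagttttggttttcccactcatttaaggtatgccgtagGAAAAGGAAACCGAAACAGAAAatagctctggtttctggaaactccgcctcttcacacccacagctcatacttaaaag
Such matches were in 10 of 21 windows of the list (47.6%) and in 2.98% of all windows.

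The other motifs were searched in the same way. CRE letters, TGACGTCA, were in 3 of 21 windows of the immediate early list (14.3%) and 1 of 17 of the unfolded protein response list (5.88%), against 1.55% of all. Antioxidant response letters, TGACNNNGC, were in 3 of 14 windows of the NRF2 list (21.4%), against 10.2% of all. Metal response letters, TGCNCNC, were in 100% of the 4 windows of metallothionein and zinc genes, against 44.4% of all.

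Antigen presentation and complement genes rose with smaller medians. Of 14 genes of MHC and antigen processing 12 rose and 0 fell (median 0.79). Nlrc5, the activator of class I genes, read 1.19, 1.25 and 1.24 CPM and 6.35, 4.64 and 3.83 CPM (log2 fold change 2.00 ± 0.17, adjusted p = 3.23e-05), and Cd74, the class II invariant chain, read 2.83, 3.58 and 3.85 CPM and 12.0, 9.96 and 8.22 CPM (1.56 ± 0.17, adjusted p = 0.000149). H2-K1, a class I heavy chain, rose by 0.80 ± 0.11 and B2m, its light chain, by 0.40 ± 0.07. Ciita, the class II activator, was not called (adjusted p = 0.486; 0.0373 without pool 1). Of 15 complement genes 12 rose and 1 fell (median 0.81). The receptors led: C3ar1 went from 3.04, 3.75 and 3.50 CPM to 28.2, 24.1 and 20.9 CPM (2.83 ± 0.13, adjusted p = 9.02e-07), and C5ar1 rose by 2.596 ± 0.16. The C1q chains, made by microglia, rose by 0.64 ± 0.10, 0.81 ± 0.09 and 0.75 ± 0.10 for C1qa, C1qb and C1qc, C4b by 1.17 ± 0.11 and C3 by 1.08 ± 0.12. C2 was the member that fell, by 0.56 ± 0.13 on the log2 scale (adjusted p = 0.00756), though its groups overlapped and DESeq2 did not call it (adjusted p = 0.0642).

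Among programs of cell stress, antioxidant genes and the mixed list of p53 targets and cell death genes rose broadly. Hypoxia genes split and activity genes varied among pools. Hmox1, heme oxygenase, went from 5.50, 5.50 and 4.64 CPM to 113, 106 and 68.3 CPM, with no overlap, as its choice among the largest rises required (log2 fold change 4.19 ± 0.15, adjusted p = 9.02e-07). It led a list of 14 NRF2 and iron genes of which 9 rose and 1 fell (median 0.57; 0 to 1 falls without 1 pool), with 2.40 ± 0.24 for Osgin1, 1.31 ± 0.18 for Slc7a11, the cystine carrier, and 0.81 ± 0.11 for Srxn1. Tfrc, the transferrin receptor, read 141, 144 and 141 CPM and 162, 123 and 145 CPM and was not called (adjusted p = 0.987), and Slc40a1, the iron exporter ferroportin, fell by 0.42 ± 0.11, a call lost without pool 3 (adjusted p = 0.108). Of 5 metallothionein and zinc genes, Mt2, Mt1 and the zinc importer Slc39a14 rose by 1.61 ± 0.09, 1.00 ± 0.06 and 0.97 ± 0.10, while Mt3 (-0.02 ± 0.05) and the exporter Slc30a1 (0.11 ± 0.05) were not called. Mt2 differed among pools on both sides, with 178, 102 and 77.9 CPM contralaterally and 536, 336 and 222 CPM ipsilaterally, so that the order of the pools was kept.

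Of 18 genes of the unfolded protein and integrated stress responses 12 rose and 0 fell (median 0.42). Atf3 was far ahead, followed by the pseudokinase Trib3 at 1.90 ± 0.19 and Chac1, which degrades glutathione, at 1.07 ± 0.21. Ddit3, the pro-apoptotic factor CHOP, rose by 0.57 ± 0.11 and Hspa5, the chaperone of the endoplasmic reticulum, by 0.44 ± 0.09. Of 19 p53 targets and cell death genes 16 rose and 0 fell (median 1.01). Cdkn1a, the cell cycle inhibitor p21, read 71.1, 46.1 and 24.0 CPM and 167, 104 and 72.4 CPM (log2 fold change 1.32 ± 0.11, adjusted p = 8.3e-05). Each pool rose, but contralateral pool 1 came close to ipsilateral pool 3. Ripk3 and Mlkl, which execute necroptosis, rose by 2.00 ± 0.26 and 2.23 ± 0.37, and Casp4, a caspase of pyroptosis, by 2.28 ± 0.24. Trp53inp1 read 33.9, 23.5 and 19.6 CPM and 43.4, 26.1 and 31.7 CPM, overlapping ranges, and was not called (adjusted p = 0.0607).

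Of 14 hypoxia and glycolysis genes 4 rose and 4 fell (median 0.03). Adm, the vasodilator adrenomedullin, and Hk2, a hexokinase, rose by 1.32 ± 0.22 and 1.28 ± 0.15; Aldoa fell by 0.27 ± 0.05 and Ankrd37 by 0.56 ± 0.12. Vegfa read 70.9, 65.9 and 87.9 CPM and 61.7, 83.4 and 90.8 CPM, overlapping ranges, and was not called (adjusted p = 0.675). The falls of Ca9 and Pgk1 were lost when any of several pools was left out, among them pool 2 (adjusted p = 0.188 and 0.213), and 2 to 3 of the 4 falls remained without 1 pool.

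Immediate early genes, which neurons and other cells transcribe within minutes of stimulation, gave calls that depended on single pools. Of 20, 9 rose and 2 fell (median 0.68), but only 2 to 5 rose when 1 pool was left out. Fosl1 and Maff, AP-1 partners, rose in every pool, by 4.49 ± 0.39 (5.29 without pool 3) and 2.37 ± 0.20. Fos read 21.4, 4.40 and 4.50 CPM contralaterally and 60.2, 76.7 and 31.8 CPM ipsilaterally; the rise was 1.49, 4.11 and 2.81 on the log2 scale in pools 1, 2 and 3 (log2 fold change 2.69 ± 0.62, adjusted p = 0.0201), and without pool 2 the log2 fold change was 1.98 (adjusted p = 0.102) and without pool 1 3.57; with no filter on low counts the adjusted p was 0.0552. Arc, a neuronal activity gene, read 92.4, 32.5 and 48.0 CPM and 114, 57.7 and 93.6 CPM, ranges that overlap (0.69 ± 0.19, adjusted p = 0.0338), and its call was lost without pool 1, 2 or 3 (adjusted p = 0.0578, 0.181 and 0.0966). Egr1 was 187, 58.7 and 81.2 CPM and 136, 149 and 104 CPM and was not called (adjusted p = 0.485). Contralateral pool 1 held the highest contralateral values of Fos, Arc and Egr1. Egr3 and Egr4 fell by 0.66 ± 0.07 and 0.86 ± 0.14. Among 16 growth and regeneration genes 5 rose and 4 fell (median 0.07; 2 to 6 and 3 to 5 without 1 pool): Gdf15, a stress hormone, rose by 5.22 ± 0.25, and Stmn2 and Vgf, neuronal proteins, fell by 0.29 ± 0.05 and 0.27 ± 0.05.

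Genes of reactive astrocytes rose, while several transporter and gap junction genes of resting astrocytes fell. All 22 of 22 reactive astrocyte genes rose, with a median log2 fold change of 2.66 and a sum that spanned 437 to 748 CPM contralaterally and 1863 to 3019 CPM ipsilaterally. Serpina3n, a secreted protease inhibitor, read 119, 63.6 and 44.2 CPM and 606, 410.5 and 289 CPM (log2 fold change 2.58 ± 0.08, adjusted p = 1.77e-07), and Vim, an intermediate filament, read 48.0, 48.3 and 36.2 CPM and 229.7, 195 and 129 CPM (2.04 ± 0.09, adjusted p = 9.02e-07). Gfap, the astrocytic filament, read 435, 299 and 243 CPM and 1372, 1170.0 and 1015 CPM (1.90 ± 0.08, adjusted p = 8.71e-07). In these genes every ipsilateral value lay well above the contralateral ones, pool 1 was the highest ipsilaterally and pool 3 the lowest. Lcn2 varied more, with 57.9, 50.0 and 14.8 CPM ipsilaterally, lowest in pool 3. Timp1, Cd44 and Tnc rose by 3.51 ± 0.32, 2.96 ± 0.24 and 3.40 ± 0.19. Several genes of this list are also made by endothelial or myeloid cells, among them Emp1, Cd44 and Timp1.

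Of 18 genes of astrocyte homeostasis 3 rose and 9 fell (median -0.22). Slc1a2, the main glutamate transporter, read 1953, 1815 and 2122 CPM and 1345, 1573 and 1745 CPM and fell by 0.34 ± 0.08 on the log2 scale (adjusted p = 0.00783). Fgfr3, Gjb6 and Gja1, the latter pair being gap junction proteins, fell by 0.52 ± 0.07, 0.44 ± 0.07 and 0.42 ± 0.07. Aqp4, the water channel of astrocyte endfeet, moved the other way, from 101, 108 and 112 CPM to 138, 131 and 138 CPM (0.34 ± 0.06, adjusted p = 0.00188). Sox9 rose by 0.36 ± 0.09, a call lost without pool 2 (adjusted p = 0.0783), and Kcnj10, a potassium channel, was not called (adjusted p = 0.617).

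**Figure D3:**
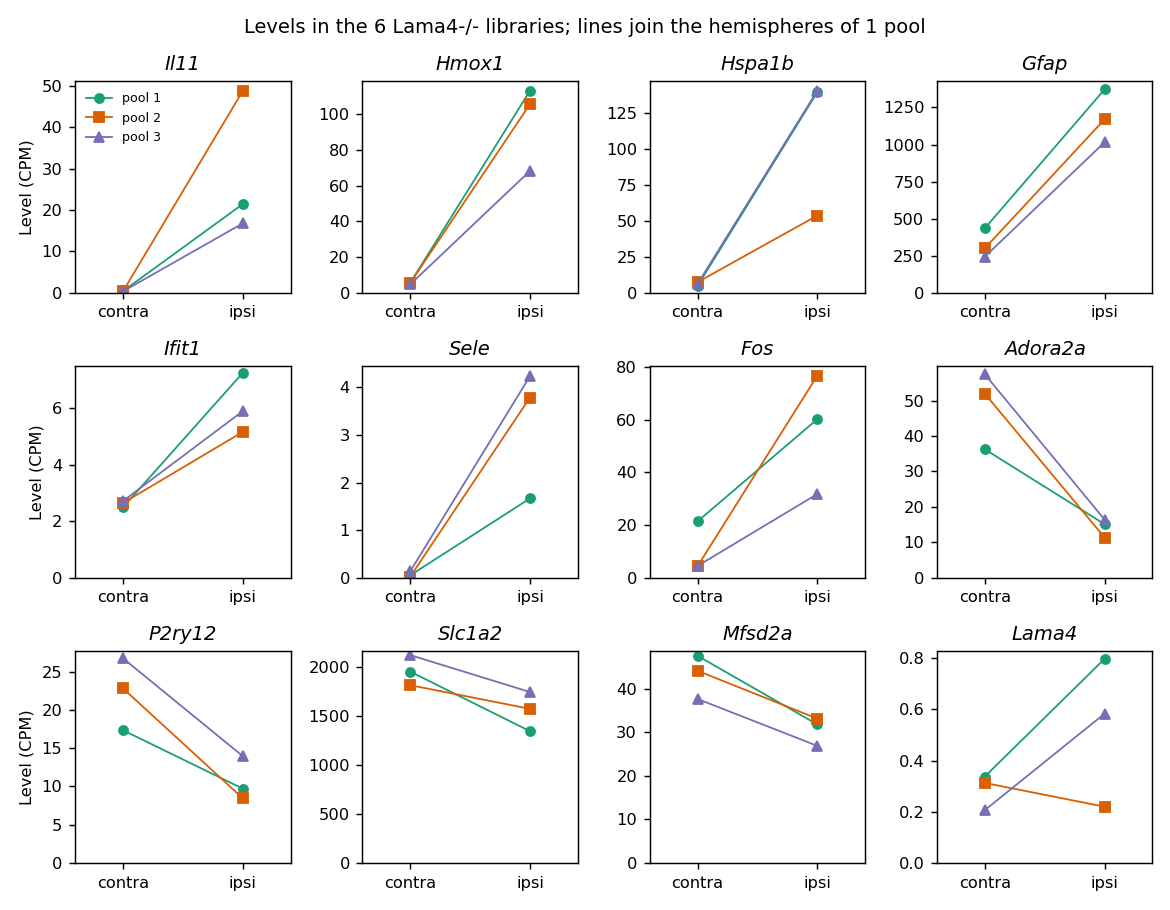
Levels of 12 genes in each Lama4-/- library: the y axis of each panel is CPM on a linear scale that starts at 0 and differs between panels, and lines join the contralateral and ipsilateral hemispheres of pools 1, 2 and 3. Lines run upward from Il11 to Fos and downward from Adora2a to Mfsd2a in every pool, Hspa1b rises least in pool 2, and Lama4 stays under 1 CPM.

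Several markers of resting microglia fell, while genes of phagocytic cells rose. P2ry12, the ADP receptor of resting microglia, read 17.3, 22.8 and 26.7 CPM and 9.71, 8.45 and 14.0 CPM, without overlap (log2 fold change -1.07 ± 0.12, adjusted p = 0.000191). Siglech and Selplg fell by 0.90 ± 0.13 and 0.85 ± 0.13. Csf1r, the receptor that microglia need to survive, read 86.0, 100.5 and 101 CPM and 100.2, 99.1 and 96.2 CPM and was not called (adjusted p = 0.66), and Fcrls rose by 1.80 ± 0.16. Of 16 genes of microglia homeostasis 4 rose and 6 fell (median 0.03). The fall of Tmem119 was lost without pool 2 or 3 (adjusted p = 0.0622 and 0.0733), and the rise of Cx3cr1, the fractalkine receptor, without pool 1 or 2 (0.086 and 0.0739).

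Of 20 genes of activated and phagocytic microglia 19 rose and 1 fell (median 1.66); macrophages from blood express most of them too. Msr1, a scavenger receptor, read 2.28, 1.92 and 0.687 CPM and 41.2, 29.8 and 21.4 CPM (log2 fold change 4.24 ± 0.14, adjusted p = 1.77e-07). Spp1, osteopontin, read 30.1, 29.6 and 25.0 CPM and 348, 296 and 303 CPM (3.48 ± 0.18, adjusted p = 2.56e-05). Lgals3, a galectin of phagocytes, read 1.22, 0.889 and 1.17 CPM and 24.0, 19.9 and 14.6 CPM (4.17 ± 0.15, adjusted p = 2.41e-07). Ipsilateral pool 1 was the highest for each, and no ipsilateral value came near the contralateral range. Lack of overlap was a condition of the choice of Msr1 and Lgals3 among the largest rises. Cd68, a lysosomal protein, rose by 1.66 ± 0.11. Apoe was the member that fell, from 1592, 2220.0 and 1771 CPM to 1035, 1430.0 and 1245 CPM (-0.59 ± 0.06, adjusted p = 0.0001). Of 11 genes of border-associated macrophages 9 rose (median 1.19), and 7 to 8 rose without 1 pool. Lyve1 read 14.0, 9.36 and 3.56 CPM ipsilaterally, highest in pool 1, and rose by 2.27 ± 0.24. Mrc1 rose by 0.94 ± 0.11, and Cd163 was not called (adjusted p = 0.191).

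Markers of blood leukocytes stayed low and rose unevenly. The summed level of 14 neutrophil genes spanned 8.36 to 9.92 CPM contralaterally and 10.9 to 30.6 CPM ipsilaterally, and 8 of them passed the filter on low counts, of which 7 rose (median 2.598; 5 to 8 without 1 pool). The other 6 had few reads on both sides, and not all pointed upward: Ngp, a granule gene, had 18, 13 and 5 reads contralaterally and 6, 3 and 6 ipsilaterally. S100a9, an abundant protein of neutrophils, read 0.701, 0.288 and 0.412 CPM contralaterally and 4.47, 6.72 and 0.828 CPM ipsilaterally, so pool 3 rose the least (log2 fold change 3.05 ± 0.45, adjusted p = 0.00176; 2.19 without pool 2). S100a8, its partner, read 0.260, 0.457 and 0.344 CPM and 3.02, 5.24 and 0.460 CPM (3.00 ± 0.42, adjusted p = 0.0009). Cxcr2, the neutrophil chemokine receptor, had 2 contralateral and 93 ipsilateral reads, a ratio of 46.0 (95% interval 12.4 to 385). Ly6g, the defining surface marker, had 0, 1 and 0 reads contralaterally and 4, 3 and 0 ipsilaterally. In ipsilateral pool 3 the levels of S100a8 and Retnlg were close to or within the contralateral range.

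Monocyte and macrophage genes summed to 161 to 175 CPM contralaterally and 228 to 324 CPM ipsilaterally; 12 of 14 listed passed the filter on low counts, and 10 of them rose (median 2.59). Ccr2, the receptor of recruited monocytes, read 0.389, 0.216 and 0.241 CPM and 3.02, 2.69 and 0.828 CPM (log2 fold change 2.96 ± 0.31, adjusted p = 0.000123). Arg1 and Chil3, genes of recruited macrophages, reached 5.05, 7.46 and 1.63 CPM and 6.16, 2.80 and 1.04 CPM, lowest in pool 3, and rose by 4.46 ± 0.29 and 4.04 ± 0.29 (3.44 for Chil3 without pool 1). Lymphocyte genes summed to 9.16 to 11.03 CPM contralaterally and 4.42 to 7.42 CPM ipsilaterally, and most of that sum was Cd4, a co-receptor of helper T cells, which fell from 8.64, 6.90 and 7.32 CPM to 3.09, 1.84 and 2.61 CPM. The T cell markers Cd3e, Cd3d and Cd3g had at most 7, 2 and 4 reads in a library. The fall of Cd4 therefore cannot be read as a fall of T cells, and which cells carried its reads was not tested. The B cell marker Ms4a1 had at most 3 reads. Lck rose by 0.49 ± 0.17 with an adjusted p of 0.0456, a call lost without pool 1 or 3 (0.299 and 0.0962) and with DESeq2 (0.289). Red cell and platelet genes summed to 6.74 to 9.83 CPM contralaterally and 8.47 to 13.2 CPM ipsilaterally, with Hba-a1 at 0 in all 6 libraries and Hbb-bs not called (adjusted p = 0.708). Blood was to be removed during preparation, and the part of these cells in the rises of cytokine and phagocyte genes was not tested.

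**Figure D4:**
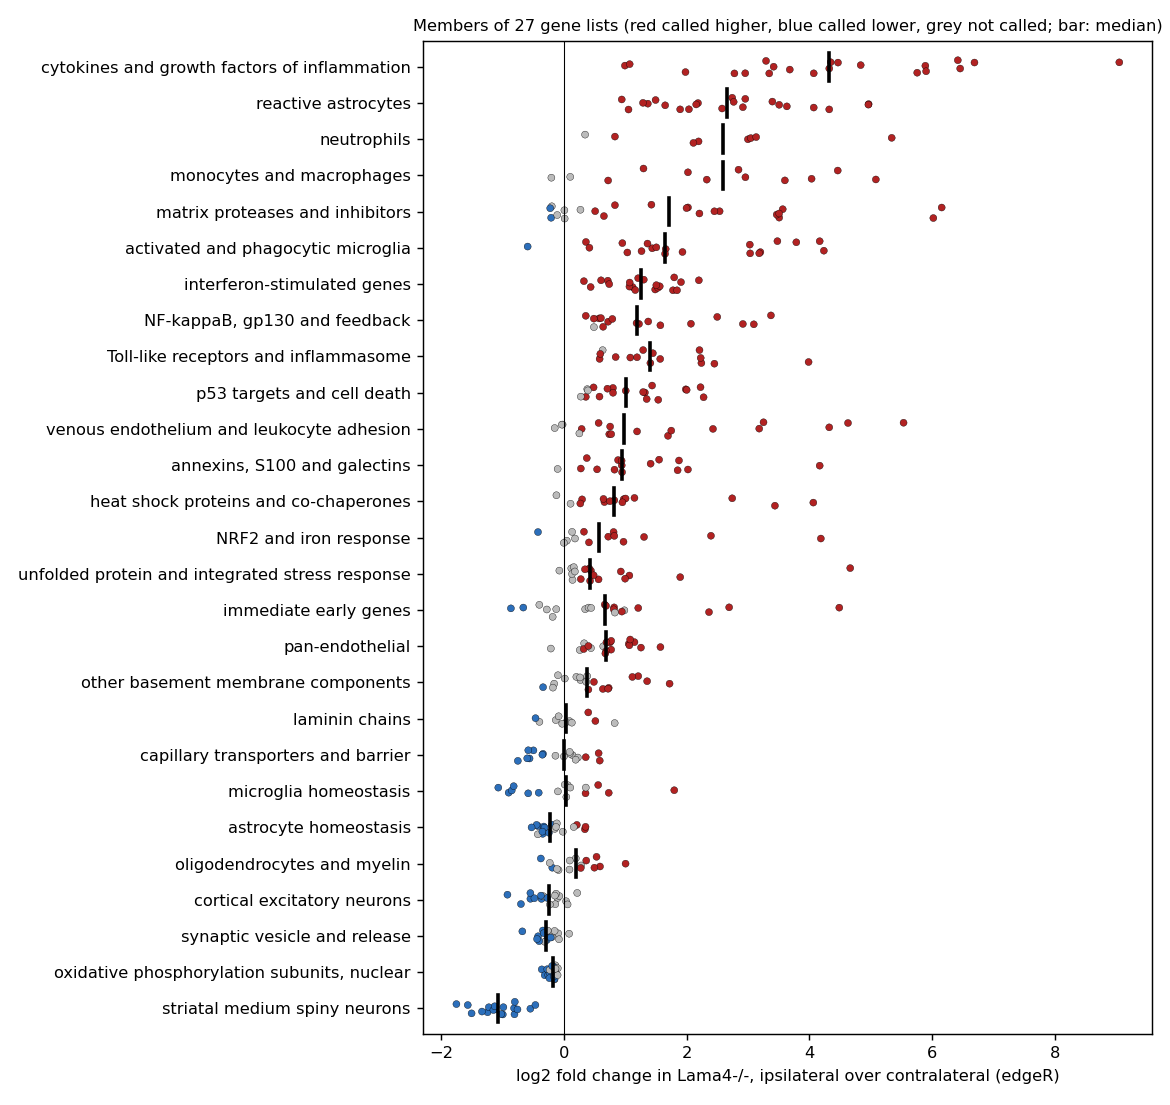
Log2 fold changes, ipsilateral over contralateral, of the tested members of 27 lists in Lama4-/- hemispheres: each row is a list, each point a gene (red called higher, blue called lower, grey not called; vertical scatter only separates points), and each black bar the median of the list. Cytokine, reactive astrocyte and leukocyte lists stand at the top and striatal neurons at the bottom, with the median of all 15351 genes at -0.0067.

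Genes shared by all endothelium and genes of venules rose, while more capillary transporter genes fell than rose. Of 19 pan-endothelial genes 14 rose (median 0.70; sum 372 to 457 CPM contralaterally and 637 to 843 CPM ipsilaterally), and of 18 genes of venules and leukocyte adhesion 14 rose (median 0.98). Of 17 capillary transporters and barrier genes 3 rose and 7 fell (median 0.00; 2 to 5 rises without 1 pool), and of 16 arterial and Notch genes 8 rose and 1 fell (median 0.37; 4 to 8 rises without 1 pool). The share of capillary genes that rose is near the 16.2% of all genes. Sele, the selectin of activated endothelium, read 0.0519, 0.0240 and 0.138 CPM and 1.67, 3.79 and 4.23 CPM (log2 fold change 5.54 ± 0.44, adjusted p = 2.26e-05). Selp, the selectin stored with von Willebrand factor, read 0.156, 0.120 and 0.138 CPM and 2.20, 5.49 and 2.76 CPM (4.63 ± 0.68, adjusted p = 0.00201), and Icam1, the ligand of leukocyte integrins, read 3.56, 3.65 and 3.33 CPM and 18.7, 22.9 and 15.5 CPM (2.43 ± 0.28, adjusted p = 0.000922). No contralateral value of either selectin exceeded 0.156 CPM, and without pool 2 their log2 fold changes were 4.91 and 4.01. Vcam1 read 28.7, 29.3 and 27.2 CPM and 30.1, 38.7 and 33.4 CPM and did not pass (adjusted p = 0.0555).

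Several barrier genes fell. Ca4, carbonic anhydrase of capillary endothelium (annotated as Car4 in other sources), read 37.7, 38.4 and 37.5 CPM and 19.8, 22.00 and 26.4 CPM without overlap (log2 fold change -0.75 ± 0.10, adjusted p = 0.000366). The carriers Slco1c1, Slco1a4 and Slc22a8 fell by 0.58 ± 0.06, 0.56 ± 0.07 and 0.59 ± 0.11, and Mfsd2a, the lipid carrier that restrains transcytosis, by 0.49 ± 0.07. Slc3a2, an amino acid carrier subunit that many cells express, rose by 0.59 ± 0.09, and Slc2a1, the glucose carrier, read 143, 128 and 108 CPM and 146, 155 and 111 CPM and was not called (adjusted p = 0.203). Of 15 tight junction and vesicle genes 7 rose and 1 fell (median 0.25). Cldn5, the main claudin of brain endothelium, read 34.5, 44.6 and 44.4 CPM and 46.3, 56.0 and 45.2 CPM, overlapping ranges (adjusted p = 0.139), and was not called. Cav1 and Cavin1, of caveolae, rose by 0.69 ± 0.09 and 0.51 ± 0.09.

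Pecam1, an adhesion protein of all endothelium, read 22.8, 25.4 and 24.9 CPM and 49.5, 67.7 and 38.4 CPM, highest in ipsilateral pool 2 (log2 fold change 1.06 ± 0.16, adjusted p = 0.00221). Ly6a rose by 1.57 ± 0.15 and Eng, a co-receptor for TGF-beta, by 1.07 ± 0.17. Cdh5, the cadherin of endothelial junctions, rose by 1.26 ± 0.23, but its adjusted p of 0.00642 became 0.079 without pool 1 and 0.0556 without pool 2. Among arterial genes Dll4, a Notch ligand, read 2.80, 4.21 and 2.61 CPM and 5.70, 9.33 and 4.33 CPM (0.99 ± 0.16, adjusted p = 0.00114) and Hey1, a Notch target, fell by 0.29 ± 0.05. Of 11 shear stress and YAP genes 10 rose (median 1.01; 6 to 8 without 1 pool), with 1.61 ± 0.11 for the mechanosensitive channel Piezo1, 1.94 ± 0.20 for endothelin 1 and 2.96 ± 0.41 for Ccn1, which read 5.24, 3.12 and 3.13 CPM and 32.6, 37.3 and 19.3 CPM. Of 17 angiogenic and tip cell genes 9 rose and 0 fell (median 0.33), led by Esm1 at 2.35 ± 0.24; Angpt2, which destabilizes vessels, rose by 2.12 ± 0.39, with an adjusted p of 0.0506 without pool 1.

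The basement membrane is the layer that loses laminin alpha 4 in these mice, and its other genes were read chain by chain. Of 11 laminin chains 2 rose and 1 fell (median 0.04), near or below the 16.2% of all genes that rose and the 15.7% that fell. Lamc1, the gamma 1 chain shared by most laminins, read 49.7, 42.5 and 48.0 CPM and 73.6, 71.7 and 55.9 CPM, without overlap (log2 fold change 0.52 ± 0.10, adjusted p = 0.00493). Lama5, the other alpha chain of endothelial laminins, read 19.8, 22.2 and 24.6 CPM and 25.8, 37.9 and 25.1 CPM (0.40 ± 0.12, adjusted p = 0.0337); pools 1 and 3 lay just above the contralateral range and pool 2 well above it, and the adjusted p was 0.153 without it and 0.0907 without pool 1. Lamc3 fell by 0.46 ± 0.14, a call lost without pool 1 (adjusted p = 0.202). The other 7 chains, Lama4 aside, were not called, with -0.40 for Lamb3, the lowest of them.

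Of 19 other basement membrane genes 9 rose and 1 fell (median 0.38). Col4a1, a collagen IV chain, read 79.8, 77.4 and 81.3 CPM and 199, 220.1 and 142 CPM (log2 fold change 1.21 ± 0.13, adjusted p = 0.000322). Hspg2, perlecan, read 11.1, 12.0 and 13.6 CPM and 29.8, 40.9 and 24.4 CPM (1.36 ± 0.21, adjusted p = 0.00302), and Serpinh1, the collagen chaperone, stood at 10.4 to 14.8 CPM contralaterally and 41.5, 41.2 and 42.1 CPM ipsilaterally (1.72 ± 0.14, adjusted p = 8.09e-05). Col4a2 and Nid1, which links laminin to collagen IV, rose by 0.73 ± 0.13 and 1.12 ± 0.19; Agrn, agrin, fell by 0.34 ± 0.07. For Col4a1 and Hspg2 pool 2 was the highest ipsilaterally and pool 3 the lowest, while Serpinh1 was nearly equal in the 3 pools. Of 16 laminin receptors 9 rose and 0 fell (median 0.49), and 6 to 8 rose without 1 pool. Itga6 and Itgb1, which join as a laminin receptor, rose by 0.76 ± 0.10 and 0.66 ± 0.07, and Sdc1, a syndecan, by 1.89 ± 0.16; Dag1, dystroglycan, read 94.8, 95.5 and 109 CPM and 93.0, 93.3 and 91.2 CPM and was not called (adjusted p = 0.205).

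Matrix proteases changed by large factors. Of 22 proteases and inhibitors tested 15 rose and 2 fell (median 1.71), and without 1 pool 11 to 14 rose and 0 to 1 fell. Mmp3, stromelysin 1, read 0.571, 0.0481 and 0.0344 CPM and 17.0, 17.2 and 8.10 CPM (log2 fold change 6.02 ± 0.43, adjusted p = 7.03e-05). Mmp12, the macrophage elastase, read 0.0779, 0.0240 and 0.172 CPM and 6.38, 6.56 and 5.40 CPM (6.16 ± 0.31, adjusted p = 1.21e-06). Both were nearly silent contralaterally, where Mmp3 was highest in pool 1. Without pool 1 the log2 fold change of Mmp3 was 8.19, without pool 2 it was 5.32, and that of Mmp12 was 6.93 without pool 3. Adamts1, which cleaves proteoglycans, read 20.9, 16.9 and 15.2 CPM and 111, 129 and 71.8 CPM (2.54 ± 0.28, adjusted p = 0.00104). In the plasminogen system Plaur, the urokinase receptor, rose by 3.47 ± 0.26, while Serpine2, a protease inhibitor, was not called (adjusted p = 0.172). Timp1 rose, and Timp2 and Timp4 fell by 0.21 ± 0.06 and 0.22 ± 0.07, calls that were lost without pool 3 (adjusted p = 0.0542 and 0.17), that of Timp2 also without pool 1 (0.133) and that of Timp4 also without pool 2 (0.118). Mmp9 rose by 0.83 ± 0.21 (adjusted p = 0.0123; 0.0929 without pool 2).

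Mmp3 and Mmp12 each hold the AP-1 letters TGANTCA close to the start, and both promoters are shown because these genes rose most in the list. Both lie on the plus strand of chromosome 9, Mmp3 at chr9:7445702-7445821 with the match beginning 46 bases before the start, and Mmp12 at chr9:7347254-7347373 with the match at 44 bases.
Mmp3: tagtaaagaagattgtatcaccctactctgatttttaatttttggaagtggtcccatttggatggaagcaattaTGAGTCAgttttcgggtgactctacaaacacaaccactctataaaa
Mmp12: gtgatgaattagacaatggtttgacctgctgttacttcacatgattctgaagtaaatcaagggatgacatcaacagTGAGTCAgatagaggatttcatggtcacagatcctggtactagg
Capitals mark the match, searched on both strands; the Mmp12 window is that of the second of its RefSeq starts, and the first start had no match. Of 16 windows of the list 4 held the letters (25.0%), against 6.75% of all windows.

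Of 14 matricellular genes 11 rose and 2 fell (median 0.77; 1 to 2 falls without 1 pool). Thbs1, thrombospondin 1, read 4.93, 2.81 and 3.54 CPM and 40.8, 34.5 and 10.8 CPM (log2 fold change 2.85 ± 0.38, adjusted p = 0.00201), and Has2, a hyaluronan synthase, rose by 2.82 ± 0.47 (3.65 without pool 1). Of 18 TGF-beta and BMP genes 9 rose and 0 fell (median 0.54). Tgfbi, an extracellular target of TGF-beta, read 8.38, 6.46 and 4.91 CPM and 49.1, 42.4 and 23.6 CPM (2.52 ± 0.11, adjusted p = 8.71e-07), and the ligand Tgfb1 rose by 1.19 ± 0.15. Genes of mural cells changed in both directions: of 13 pericyte genes 2 rose and 4 fell (median 0.04), and of 11 smooth muscle genes 2 rose and 2 fell (median -0.17; 1 to 2 each way without 1 pool), counts to be read beside the 16.2% of all genes that rose and the 15.7% that fell. Pdgfrb, the pericyte receptor, rose by 0.40 ± 0.09, Des, desmin, by 1.16 ± 0.15, and Cspg4 and Vtn fell by 0.54 ± 0.07 and 0.41 ± 0.06. Acta2, smooth muscle actin, read 6.80, 9.76 and 9.66 CPM and 6.13, 9.08 and 7.24 CPM and was not called (adjusted p = 0.155). Of 14 fibroblast and meningeal genes 7 rose and 3 fell (median 0.14; 4 to 7 and 0 to 3 without 1 pool), with 1.61 ± 0.22 for Col3a1, 1.28 ± 0.22 for Lum and 1.14 ± 0.19 for Dcn.

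Genes of striatal neurons fell, as did some members of the other neuronal lists, and of these lists that of the striatum had the lowest median. Every one of 18 tested genes of medium spiny neurons, the projection neurons of the striatum, fell, with a median of -1.07 and a sum that spanned 1906 to 2319 CPM contralaterally and 844 to 1134 CPM ipsilaterally; 16 to 17 were called without 1 pool. Pde10a, the phosphodiesterase of these neurons (ENSMUSG00000023868, chr17:8525372-8986648, plus strand, mm10), read 221, 214 and 313 CPM and 114, 93.7 and 128 CPM (log2 fold change -1.15 ± 0.07, adjusted p = 3.55e-06). Ppp1r1b, the dopamine-regulated phosphatase inhibitor DARPP-32, read 276, 336 and 314 CPM and 168, 107 and 128 CPM (-1.22 ± 0.15, adjusted p = 0.00123). Drd2 read 22.8, 25.9 and 30.3 CPM and 12.5, 8.81 and 12.2 CPM, and Drd1, the receptor of the other class of spiny neuron, read 40.1, 42.6 and 48.8 CPM and 27.4, 16.02 and 23.7 CPM (-0.99 ± 0.15, adjusted p = 0.00238). Pool 2 was the lowest ipsilaterally in all these genes, and groups did not overlap. Lack of overlap was a condition of the choice of Pde10a, Ppp1r1b and Drd2 among the largest falls. Genes of both classes fell: Penk and Gpr6, of neurons that carry Drd2, by 1.12 ± 0.17 and 1.50 ± 0.16, and Tac1, of neurons that carry Drd1, by 0.80 ± 0.08. Whether the fall differs between the classes was not tested.

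The list of cortical excitatory neurons had a median nearer to 0: 8 of 18 fell and 0 rose (median -0.25). Lamp5 read 124, 134 and 134 CPM and 74.1, 54.6 and 81.6 CPM (log2 fold change -0.92 ± 0.11, adjusted p = 0.000671), and Nrgn, a postsynaptic calmodulin-binding protein, read 1015, 1103 and 1080.0 CPM and 630.5, 616 and 731 CPM (-0.70 ± 0.06, adjusted p = 5.28e-05). Slc17a7, the vesicular glutamate transporter of cortex, fell by 0.36 ± 0.06. The cortical transcription factors Tbr1 and Neurod2 were not called, at -0.33 ± 0.14 and 0.22 ± 0.15, although without pool 1 both were (adjusted p = 0.0493 and 0.00107). Of 15 interneuron genes 7 fell and 0 rose (median -0.28; 3 to 7 without 1 pool), with Slc32a1, the vesicular GABA transporter, at -0.37 ± 0.05 and Cck at -0.53 ± 0.10. Of 18 glutamate and GABA receptor subunits 11 fell, led by Gabrd at -0.68 ± 0.12 and Gabra4 at -0.45 ± 0.06, and Grin1, the obligate NMDA receptor subunit, read 418, 451 and 418 CPM and 307, 338 and 307 CPM (-0.44 ± 0.05, adjusted p = 0.000142). Of 18 synaptic vesicle genes 11 fell, Stx1a by 0.67 ± 0.10 and Syp by 0.42 ± 0.06, and of 19 voltage-gated channel genes 5 fell (5 to 10 without 1 pool), Kcnj4 by 0.61 ± 0.13. No member of these 3 lists rose.

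Hypothalamic neuropeptide genes held 4 of 14 that fell and 0 that rose (median -0.29; 1 to 3 falls without 1 pool). Agrp, an appetite peptide, read 1.92, 1.13 and 1.82 CPM and 0.338, 0.357 and 0.184 CPM (log2 fold change -2.42 ± 0.43, adjusted p = 0.00303), a fall larger than that of Adora2a but at a level below the expression limit used for the 15 largest. Oxt, oxytocin, fell by 1.09 ± 0.30 (adjusted p = 0.0291), a call lost without any of the pools (0.168, 0.129 and 0.0501 without pools 1, 2 and 3). Avp, vasopressin, read 12.9, 13.5 and 20.2 CPM and 12.1, 17.6 and 14.3 CPM and was not called (adjusted p = 0.795).

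Some myelin genes rose, and some genes of oligodendrocyte precursors fell. Of 15 myelin genes 6 rose and 2 fell (median 0.20; 0 to 1 falls without 1 pool). Opalin read 7.94, 10.7 and 9.48 CPM and 17.9, 20.8 and 17.4 CPM (log2 fold change 1.01 ± 0.10, adjusted p = 9.14e-05), and Cldn11, the claudin of myelin, rose by 0.59 ± 0.06. The abundant Mbp, a main protein of myelin, read 2824, 3440.0 and 2701 CPM contralaterally and 2655, 3403 and 2434 CPM ipsilaterally, overlapping ranges, and was not called (adjusted p = 0.453). Of 12 precursor genes 2 rose and 6 fell (median -0.19; 1 to 2 rises without 1 pool): Gpr17, of cells about to differentiate, read 42.7, 42.9 and 41.5 CPM and 20.9, 26.4 and 32.7 CPM (-0.69 ± 0.13, adjusted p = 0.00383), while Bcas1 rose by 0.82 ± 0.15, with an adjusted p of 0.0596 without pool 1. Choroid plexus genes varied among libraries, with Ttr at 601, 805 and 522 CPM and 531, 729 and 584 CPM, not called (adjusted p = 0.832). Of 11 choroid plexus genes 2 fell (0 to 1 without 1 pool), a share near the 15.7% of all genes. Of 13 ependymal genes 4 fell (2 to 3 without 1 pool), Ccdc153 by 1.14 ± 0.21, and Foxj1, the regulator of motile cilia, read 12.6, 15.8 and 12.99 CPM and 14.2, 14.7 and 12.2 CPM (adjusted p = 0.982). Of 17 cell cycle genes 10 rose and 1 fell (median 0.52), and 8 to 9 rose without 1 pool. Mcm3, a replicative helicase subunit, read 2.596, 2.84 and 3.81 CPM and 8.89, 7.68 and 7.92 CPM (1.42 ± 0.14, adjusted p = 9.14e-05). Mki67, present in cycling cells, rose by 0.79 ± 0.18 at 3.00, 2.88 and 2.67 CPM.

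Many energy metabolism genes fell by small amounts. Of 20 nuclear oxidative phosphorylation genes 11 fell and 0 rose (median -0.17; 3 to 10 falls without 1 pool). Ndufa4 read 184, 234 and 185 CPM and 152, 169 and 163 CPM (log2 fold change -0.31 ± 0.06, adjusted p = 0.00437), while Cox4i1 fell by 0.27 ± 0.07 with the highest contralateral value in pool 2, and without that pool its adjusted p was 0.104. Of 6 mitochondrially encoded genes tested 5 fell (median -0.23; 2 to 4 without 1 pool), mt-Nd1 by 0.30 ± 0.06; the other 5 listed, mt-Nd3, mt-Nd4l, mt-Co2, mt-Co3 and mt-Atp8, had at most 6 reads per library. Of 18 cholesterol genes 6 rose and 2 fell (median 0.11; 1 to 2 falls without 1 pool), with Abca1, a cholesterol exporter, at 0.37 ± 0.07 and Cyp46a1, the neuronal enzyme that removes brain cholesterol, at -0.60 ± 0.06 (adjusted p = 9.14e-05).

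Of 16 clock genes 1 rose and 6 fell (median -0.10; 1 to 2 rises without 1 pool), Dbp by 0.55 ± 0.08 and Nr1d1 by 0.33 ± 0.05, while Per1 was not called (adjusted p = 0.537). Of 12 glucocorticoid targets 4 rose and 2 fell (median 0.11). Fkbp5, a sensitive target, read 134, 102 and 69.2 CPM and 134, 109.9 and 69.5 CPM, a gradient over the pools that was alike on both sides (log2 fold change 0.04 ± 0.05, adjusted p = 0.577). Of 15 prostaglandin genes 8 rose and 2 fell (median 0.35), and without 1 pool 6 to 7 rose and 1 to 2 fell. Ptgs2, the inducible cyclooxygenase, read 13.5, 12.3 and 12.8 CPM and 47.8, 31.7 and 29.6 CPM (1.47 ± 0.11, adjusted p = 3.16e-05). Ptges rose by 1.57 ± 0.27, and Ptgds, the prostaglandin D synthase, fell by 0.46 ± 0.09. Of 15 annexins, S100 proteins and galectins 14 rose and 0 fell (median 0.94), with 1.85 ± 0.24 for Anxa2 and 1.42 ± 0.12 for S100a6. Of 20 ribosomal protein genes 5 rose (median 0.18; 3 to 15 without 1 pool), Rplp0 by 0.57 ± 0.08, and of 18 proteasome genes 5 rose (median 0.11; 2 to 9 without 1 pool), Psme2 by 0.39 ± 0.08.

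The pools differed in the size of the response. To compare them by genes not chosen in Lama4-/-, the 595 genes that rose at least 2-fold in WT were taken; 554 of them also rose in Lama4-/-, and their median log2 change was 1.75 in pool 1, 1.68 in pool 2 and 1.41 in pool 3. For the 41 genes that fell at least 2-fold in WT, of which 27 were called lower in Lama4-/-, the medians were -1.06, -1.07 and -1.17. Pool 3 thus had the smallest median rise and, by a small margin, the deepest median fall. Among the 721 genes that rose at least 2-fold in Lama4-/-, the largest rise fell in pool 1 for 295, in pool 2 for 310 and in pool 3 for 116.

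Whether the absence of laminin alpha 4 altered this response was asked with the difference of the hemisphere changes, Lama4-/- minus WT. With edgeR no gene passed: 0 of 15351 were called (0%), the smallest adjusted p was 0.449, and 665 genes (4.33%) had an unadjusted p under 0.05. That number was 1649 without Lama4-/- pool 1 and 254 without WT pool 1. By DESeq2 1 gene was called, and by limma voom 0. The median SE of a difference was 0.118 on the log2 scale, against 0.0838 for the change in Lama4-/- alone. In WT, 3608 genes were called, 2024 higher and 1584 lower. Of the genes that rose in Lama4-/-, 1663 also rose in WT, which is 66.7% of the Lama4-/- and 82.2% of the WT calls; for falls the number was 1243, or 51.5% and 78.5%. No gene was called in opposite directions. These shares depend on the joint fit: with each genotype fitted alone and the pool as a block, 3413 genes were called in Lama4-/- and 4826 in WT, so the longer list changes side.

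**Figure D5:**
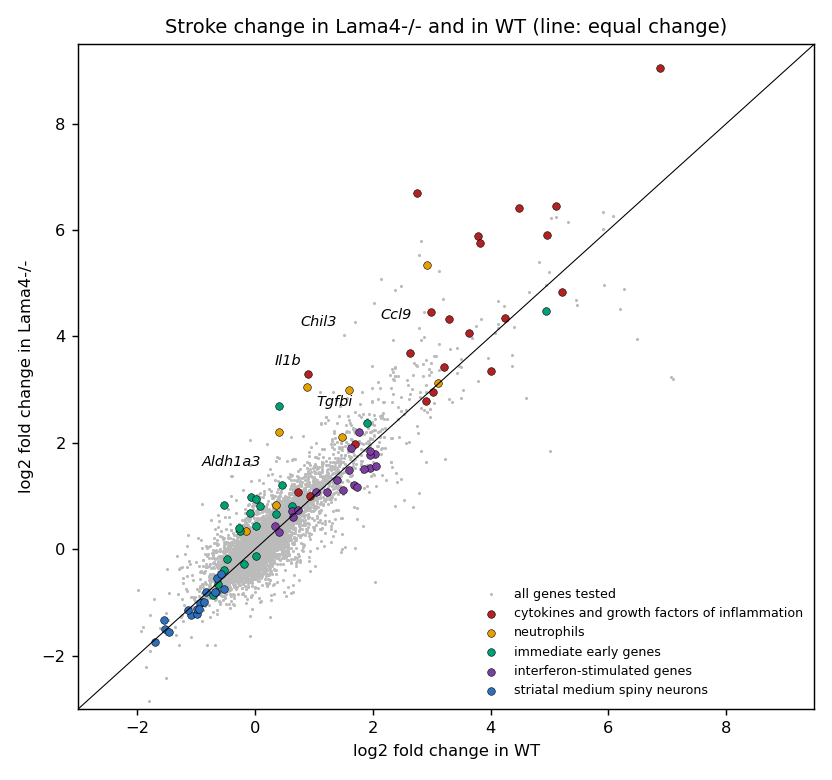
Stroke change in Lama4-/- against that in WT: each point is 1 of 15351 genes, with the log2 fold change, ipsilateral over contralateral, in WT on the x axis and in Lama4-/- on the y axis; the line marks equal change and colours mark the members of 5 lists. Points spread about the line, and the labelled genes with the smallest p for the difference, Ccl9, Aldh1a3, Il1b, Chil3 and Tgfbi, lie above it.

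The 5 genes with the smallest p for the difference had larger fold changes in Lama4-/-, and none passed the correction with edgeR; DESeq2 called Ccl9 (adjusted p = 0.0294). Ccl9, a chemokine of myeloid cells, read 1.32, 1.18 and 0.756 CPM contralaterally and 24.3, 18.3 and 15.99 CPM ipsilaterally in Lama4-/-, against 1.07, 2.11 and 1.05 CPM and 6.39, 16.4 and 7.24 CPM in WT. Ipsilaterally the lowest Lama4-/- value lay just under the highest WT value, so the genotypes overlapped, and the difference of the log2 fold changes was 1.37 ± 0.19 (edgeR adjusted p = 0.449). Il1b read 0.130, 0.216 and 0.275 CPM and 2.13, 2.19 and 1.66 CPM in Lama4-/- and 0.433, 0.302 and 0.233 CPM and 0.641, 0.563 and 0.590 CPM in WT (difference 2.39 ± 0.46, adjusted p = 0.874). For Il1b the genotypes did not overlap ipsilaterally and did contralaterally. The differences were 1.18 ± 0.22 for Aldh1a3, a retinoic acid enzyme, 2.52 ± 0.53 for Chil3 and 0.75 ± 0.16 for Tgfbi, each with an adjusted p of 0.874. Over all genes 46.8% of the differences lay above 0, with a median of -0.01, and 39 of the 60 lists had a median difference above 0. Lists of many kinds were one-sided: the difference lay above 0 in 17 of 17 NF-kappaB and gp130 genes, 11 of 11 shear stress genes, 8 of 8 neutrophil genes, 18 of 19 pan-endothelial genes, 14 of 15 myelin genes and 17 of 21 cytokine genes, and in 6 of 20 interferon-stimulated, 2 of 20 oxidative phosphorylation and 1 of 20 ribosomal protein genes. A gene could pass the filter on low counts through the ipsilateral Lama4-/- libraries alone, and members of a list may move together. These counts therefore describe the genes that passed and support nothing further. The neutrophil sum ranged from 10.9 to 30.6 CPM between ipsilateral pools of Lama4-/-, and the part of these cells in the differences was not tested. The median log2 fold change of the striatal genes was -1.07 in Lama4-/- and -0.95 in WT, and none of their differences was called.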

How the data were processed

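RNA-seq libraries of both hemispheres were made by the authors from 3 Lama4-/- and 3 WT pools. Demultiplexing with bcl2fastq, FastQC 0.72, alignment with STAR 2.6.0, counting with featureCounts 1.6.4, DESeq2 and the build mm10 are named in the submitters' processing notes; no source used here gives the annotation or the strand setting, so overlapping and antisense genes may share reads. The labels name a single-cell 3' kit for these bulk libraries, and whether whole transcripts were read is not stated. The analysis started from the deposited table of raw read counts per gene, 20347 entries of which 2207 were 0 in all 12 libraries; 48 other per-library columns in 8 normalized or filtered tables were not used.

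Counts were tested in edgeR 4.0.16 (R 4.3.3) by the robust quasi-likelihood F test after filterByExpr (15351 genes kept) and TMM scaling, with the pool as a block, 1 hemisphere term per genotype and Benjamini-Hochberg adjustment over all genes tested. Hemispheres of the same number come from the same animals by the labels, and their deviations correlated at 0.11 to 0.34 in the 6 pools. The p-values measure the spread between pools. Because all 12 libraries share 1 spread estimate, the WT libraries bear on the Lama4-/- errors. Alternatives used limma 3.58.1 and DESeq2 1.42.0, other scalings and filters, no block, a pool left out, or only 1 genotype. Symbols were matched to RefSeq, 6 of 907 list symbols by synonym. Coordinates are those of GENCODE M21, a GRCm38 (mm10) annotation, and promoters those of RefSeq on GRCm38.p6, the 250 bases before each start.

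The genes and 60 lists were chosen with earlier results of these data known. Named genes were Lama4, the 15 called genes with the largest change in each direction (mean of at least 1 log2 CPM, no overlap of groups, same direction in 3 pools), the 5 with the smallest p in each direction, up to 6 called per direction and 2 uncalled members of each list, all members of lists of up to 8, and the 5 with the smallest p for the difference from WT. A further 31 genes were named after their values were seen, and a few genes that the rule names are not reported here. Promoters matched 10 of 15 heat shock, 18 of 20 interferon-stimulated, 4 of 5 metallothionein and zinc, 10 of 14 NRF2, 15 of 20 immediate early, 17 of 18 unfolded protein, 15 of 22 protease and 13 of 21 cytokine genes.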

Additional observations from a re-analysis of the deposited data

How the results depend on the processing

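The count of 4906 genes called in Lama4-/- lay between 3413 and 4953 in the alternatives except in the fit of the 6 Lama4-/- libraries with no replicate block, which called 2470, 1555 higher and 915 lower; without the block on all 12 libraries it was 3580. The same 6 libraries with the block called 1515 genes lower. Leaving out 1 pool of either genotype gave 3678 to 4503 calls, 2049 to 2349 higher and 1629 to 2154 lower. In WT the 3608 calls became 2361 with no replicate block and 1577 to 4412 with 1 pool left out, and the 6 WT libraries alone with the block called 4826. The difference between genotypes gave 0 to 2 calls with 1 pool left out, Btg2 and Npas4 without WT pool 2 (adjusted p = 0.0363 and 0.0361), and 1 call with DESeq2, Ccl9 (adjusted p = 0.0294); at an unadjusted p under 0.05 it gave 665 genes with edgeR, 252 with DESeq2 and 691 with limma voom, and 254 to 1649 with 1 pool left out. A filter of 1 CPM moved the medians of 4 of 60 lists, at most by 0.64, that of the lymphocyte list to -0.56. Without Lama4-/- pool 1, 2 or 3 the medians of 3, 5 and 4 lists moved, at most by 0.294, 0.475 and 0.39. Each fit of the 6 Lama4-/- libraries moved the median of 1 list, at most by 0.49. The cause of these shifts was not tested. Of 505 named genes 342 kept their side of the threshold in all 14 alternatives that gave them a value, and none changed its direction past the threshold. The most calls, 91, were lost in the fit of the 6 Lama4-/- libraries with no replicate block. With no replicate block on 12 libraries 71 were lost, and with a Lama4-/- pool left out 36 to 67. With 3 pools per genotype and 4 residual degrees of freedom, a lack of calls does not show that the genotypes respond alike. Differences several times their own SE went uncalled with edgeR, among them those given above for Il1b and Chil3. The median SE over all genes, 0.118 (log2), is smaller than that of Il1b or Chil3. Genes under 1 CPM rest on fewer than 42.5 reads per library.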
